A study of Mus musculus with 2 samples.

Results

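The genes described here make and export sterols, make and oxidise fatty acids, and store fat in lipid droplets. They are a list of 51 mouse genes, and 47 of them had at least 1 probe set whose only annotated gene was the member, with 90 such probe sets in all, among 12393 genes on the array. The 4 members named without a value are Insig1, Soat1, Acsl1 and Acsl3. The rule for members goes by gene name and sets no threshold on a signal, and a gene with several probe sets is represented by its brightest in mean log2 signal. The study compared gene expression between dendritic cells and eosinophils that reside in the lamina propria of the small intestine. Both populations came by flow sorting from C57BL/6 mice aged 8 weeks and neither had been stimulated. Dendritic cells were sorted as CD11c+MHCII+ and eosinophils as CD11b+CD11c(int)MHCII-SiglecF+, and each population was measured on 1 array. The number of animals behind each sort is not stated in the labels.

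Cholesterol is built from acetyl-CoA through mevalonate, squalene and lanosterol, and the enzymes of that chain are switched on together by the SREBP transcription factors when the membrane of the endoplasmic reticulum runs short of sterol. Surplus sterol is esterified or pumped out by ABC transporters. Fatty acids are built by acetyl-CoA carboxylase and fatty acid synthase, then lengthened by elongases and given double bonds by desaturases. They are coupled to coenzyme A before they can be burnt in mitochondria or packed as triglyceride into lipid droplets. Lamina propria leukocytes lie beneath the absorptive epithelium through which dietary fat passes.

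The values are linear MAS5 signals, 1 per probe set, and the number of arrays limits their precision. No population had a second array, so replicate error could not be had, no test was made, and every difference describes these 2 arrays. In such sorted bulk samples, fewer cells that express a gene and less of its RNA per cell cannot be told apart. A signal under 134.7 units, the pooled median signal, was raised to that floor before a difference was taken. Where 1 of the signals had been raised, the ratio is a lower bound and is given as "at least". Genes of lens, hair, sperm, egg and olfactory neurons, taken as background, had a 95th percentile of 195 units, so signals up to that level may be background. Differences of separate probe sets for 1 gene scattered with a pooled log2 SD of 0.73 (1.65-fold, from 4402 probe sets of 1766 genes). This probe set SD is the spread used here, and it is no error between animals. The labels were borne out by the markers. Of the 8 eosinophil markers with a probe set, 7 passed the floor on the eosinophil array and 2 on the dendritic cell array, and all 10 dendritic cell markers were brighter on the dendritic cell array. Macrophage markers summed to 12366 units in dendritic cells, most of it Lyz2, against 2532 units in eosinophils over 11 genes. Of the 7 above the floor on at least 1 array, 5 were brighter in dendritic cells and 2, Mertk and Cd163, in eosinophils. Stress genes summed to 24530 units against 15237 units over 8 genes. The part of either list in the results that follow was not tested.

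Fatty acid uptake, desaturation and triglyceride synthesis held the genes furthest apart, and these were brighter in dendritic cells. Cd36, Scd1 and Dgat1 passed 4-fold towards dendritic cells, while the sterol exporter gene Abcg1 and the squalene synthase gene Fdft1 were at least 4-fold brighter in eosinophils. Of 43 members above the floor on at least 1 array, 3 (6.98%) were thus at least 4-fold brighter in dendritic cells, against 5.35% of the 7994 genes measured. In the other direction there were 2 (4.65%), again against 5.35% of all genes. At 2-fold the members numbered 9 (20.9%) brighter in dendritic cells, against 15.5% of all genes, and 6 (14.0%) brighter in eosinophils, against 19.0%. The median log2 difference, eosinophil minus dendritic cell, was 0.20 over the members and 0.16 over all genes. The counts and the median of the whole list thus lay near those of all genes. Single members ran from -3.95 to 2.14, and members of 1 role could lie far apart. The lipid droplet group, for example, ran from -2.89 to 1.06.

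**Figure D1:**
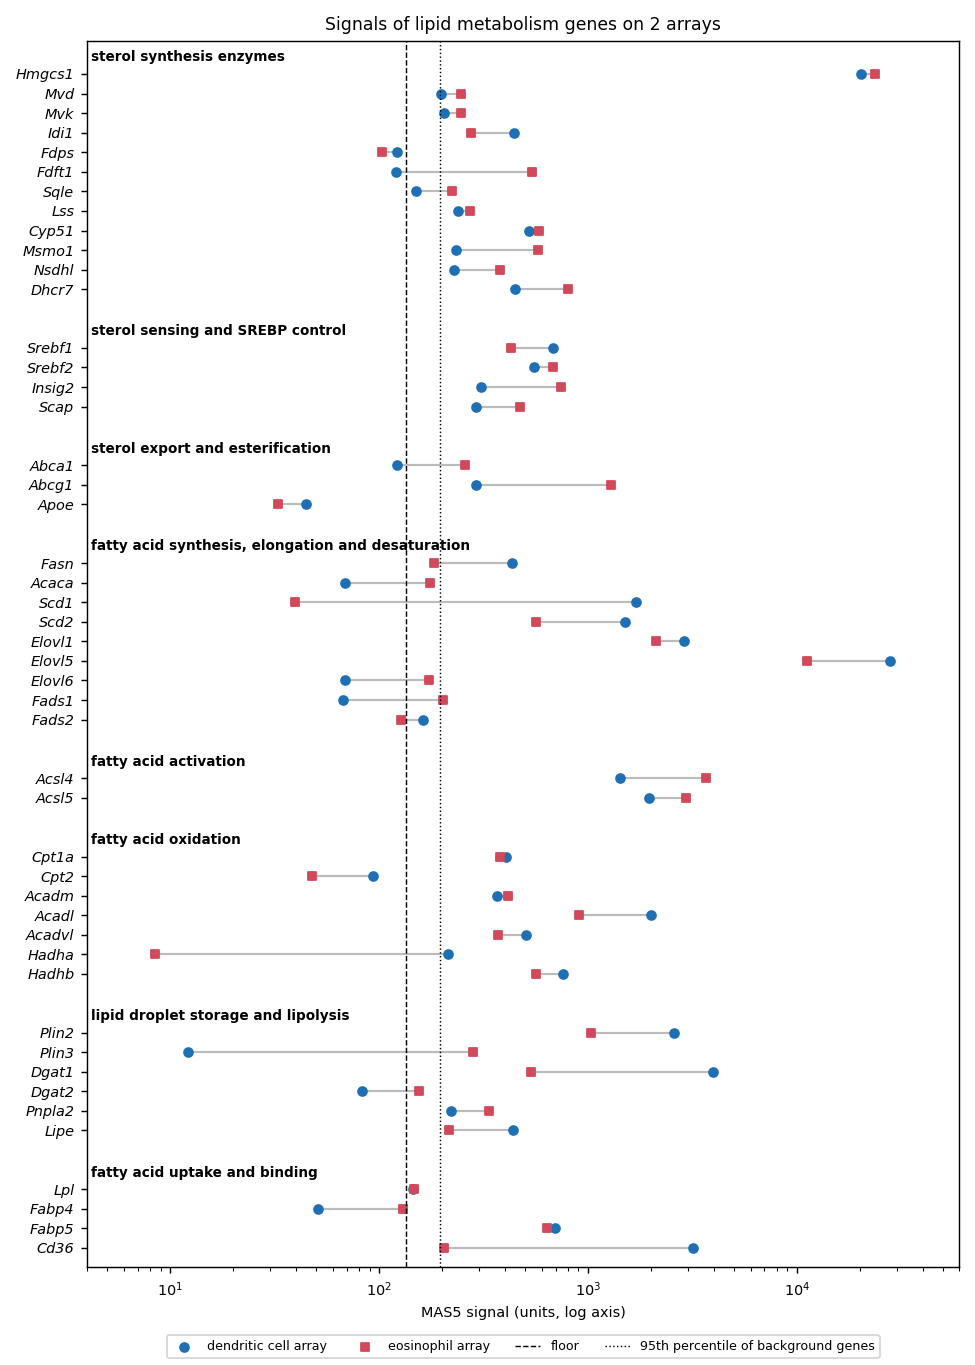
Signals of the 47 genes with a probe set on the dendritic cell array (circles) and the eosinophil array (squares), on a log axis in MAS5 units and ordered by role, with the floor (dashed) and the 95th percentile of background genes (dotted). Cd36 runs from 205 units in eosinophils to 3174 units in dendritic cells, whereas the Hmgcs1 signals of 20195 and 23591 units nearly meet.

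**Figure D2:**
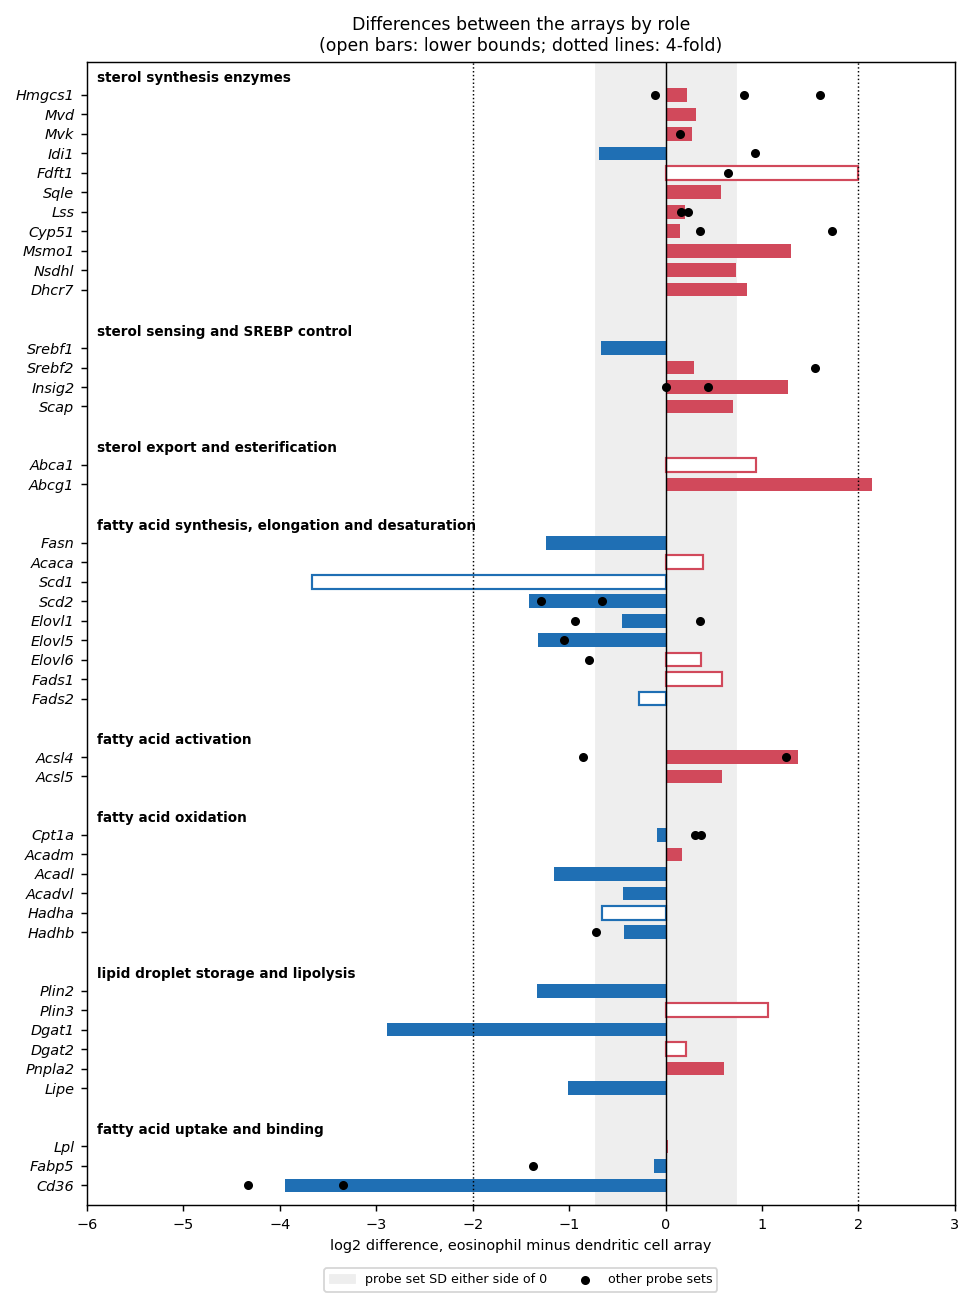
Log2 differences (eosinophil minus dendritic cell) of the 43 measured genes by role, with lower bounds as open bars, other probe sets of the same gene as black points, and the probe set SD of 0.73 either side of 0 in grey. Bars of the sterol synthesis enzymes point to eosinophils except Idi1, and 6 of 9 bars of the fatty acid synthesis group point to dendritic cells.

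Sterol synthesis enzymes leaned towards eosinophils by small amounts. Of 11 measured enzymes, 10 were brighter in eosinophils, against 57.4% of all genes, but 2 passed 2-fold and the median was 0.31. Spike controls added before hybridisation had a median ratio of 2.06 in favour of the eosinophil array. After centring on them, 9 of the same 11 were brighter in dendritic cells, against 78.0% of all genes. The direction of the group thus depended on the scale, as did that of all genes. Hmgcs1, the cytosolic HMG-CoA synthase that feeds the mevalonate route, gave 20195 units in dendritic cells and 23591 in eosinophils, a ratio of 1.17, below the probe set spread. Its other 3 probe sets differed by -0.11, 0.82 and 1.61 on the log2 scale. The mevalonate kinase Mvk gave 204 units in dendritic cells and 246 in eosinophils. Mvd, the decarboxylase that makes isopentenyl diphosphate, gave 198 units and 246 units in the same order. The signals of both lay close to the background level on each array. Idi1, the isomerase of that product, was the exception at 445 units in dendritic cells and 275 in eosinophils (1.62-fold). Its second probe set pointed the other way, with 206 units and 392 units, so the direction of Idi1 was not settled by the array.

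Further along the chain, Fdft1 and Msmo1 were the enzymes past 2-fold on their brightest probe sets, and Cyp51 differed least on its own. Fdft1, the squalene synthase that commits the route to sterols, gave 121 units in dendritic cells, under the floor, and 539 units in eosinophils, at least 4-fold apart. That ratio lies at the mark itself and comes from a probe set whose identifier ends in _x_at. A second probe set gave 55.2 units and 211 units, at least 1.57-fold, and the remaining ones lay under the floor on both arrays. Without probe sets ending in _s_at or _x_at, Fdft1 stood at 0.65 on the log2 scale. With the mean of all probe sets it was not measured. The squalene epoxidase Sqle gave 150 units in dendritic cells and 223 in eosinophils. The lanosterol synthase Lss gave 239 units and 274 units. Cyp51, the lanosterol demethylase, gave 524 units in dendritic cells and 582 in eosinophils, a ratio of 1.11. A second Cyp51 probe set gave 63.9 units and 447 units, at least 3.32-fold brighter in eosinophils. A further one gave 10.4 units and 172 units, at least 1.28-fold in the same direction. Averaging the probe sets brought Cyp51 to 1.40 on the log2 scale. Msmo1, the methylsterol monooxygenase of a later step, gave 235 units in dendritic cells and 579 in eosinophils, 2.47-fold apart. The sterol dehydrogenase Nsdhl gave 229 units and 381 units, 1.66-fold apart. Dhcr7, a reductase of the last steps to cholesterol, gave 449 units and 807 units, 1.80-fold apart. Msmo1 and Fdft1 kept their direction under every alternative in which they were measured, the spike scale included. Fdps, the farnesyl diphosphate synthase, lay under the floor on both arrays.

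Promoters of these enzymes shared sequence features that the choice of members did not use. RefSeq windows from 250 bases before to 50 bases after a start site (GRCm38.p6) were at hand for 39 of the 51 members, in 51 windows. Windows were searched on both strands for 12 motifs. The CCAAT box (CCAAT), bound by NF-Y, a partner of the SREBPs at sterol promoters, was in 9 of the 11 windows of sterol synthesis enzymes and in at least 1 window of all 9 enzymes with a window, against 37.4% of all 32851 windows. At least 2 copies were in 7 of the 11, against 11.7% of all windows. The GC box (GGGCGG) was in 10 of the 11, against 35.7% of all windows. It was also in 70.6% of the windows of all members, so it was not particular to these enzymes. The sterol regulatory element (TCACNCCAC) was in 1 of the 11, against 1.24%, and its looser form (TCACNNCAC), which includes it, in 3, against 3.77%. The E-box (CACGTG) was in 1 of the 11, against 7.15%, and the C/EBP site (TTGCNNAA) was in 2, against 10.8%. The promoter element TATAAA, present in 13.6% of all windows, was in none of the 11 enzyme windows. The site of the GATA family of transcription factors (AGATAA) was also in none, against 11.2%. The PU.1 site (GAGGAAGT), the interferon response element and hormone receptor direct repeats with 1 or 4 free bases were in none either, against 3.20%, 3.44%, 0.0396% and 0.0152%. A match describes the letters in a window and is no binding site. The windows of Hmgcs1 (chr13:119690101-119690400, plus strand), which holds the sterol regulatory element and 4 CCAAT boxes, and Msmo1 (chr8:64733529-64733828, minus strand), the enzyme with a window that stood furthest towards eosinophils, are shown 5′ to 3′ along the gene. Capitals mark CCAAT boxes on either strand and, in Hmgcs1, also the sterol regulatory element.
Hmgcs1: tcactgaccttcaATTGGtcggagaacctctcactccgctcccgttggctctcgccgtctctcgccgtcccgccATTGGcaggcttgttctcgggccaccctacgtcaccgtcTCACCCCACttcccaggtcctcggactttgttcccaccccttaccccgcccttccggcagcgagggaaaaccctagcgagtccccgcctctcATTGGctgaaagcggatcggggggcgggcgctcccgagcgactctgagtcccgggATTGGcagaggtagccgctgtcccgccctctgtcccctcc
Msmo1: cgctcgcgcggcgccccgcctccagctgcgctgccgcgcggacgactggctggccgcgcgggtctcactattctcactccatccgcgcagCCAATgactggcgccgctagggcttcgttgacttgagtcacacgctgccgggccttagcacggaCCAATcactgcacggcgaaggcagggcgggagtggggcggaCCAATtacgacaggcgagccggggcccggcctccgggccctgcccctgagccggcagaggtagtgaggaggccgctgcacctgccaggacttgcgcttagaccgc

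Regulators of SREBP processing were measured above background on both arrays and under 2-fold apart except Insig2. Of 4 measured, 3 were brighter in eosinophils, against 57.4% of all genes, and the median was 0.50, which became -0.54 on the spike scale. Srebf2, the factor that drives sterol synthesis, gave 551 units in dendritic cells and 678 in eosinophils (1.23-fold), and a second probe set gave 321 units and 942 units (2.93-fold). Srebf1, whose main product favours fatty acid synthesis genes, was brighter in dendritic cells at 683 units against 430 units, 1.59-fold apart. Insig2, which holds SREBPs in the endoplasmic reticulum, gave 308 units in dendritic cells and 741 in eosinophils, 2.41-fold apart. Its other probe sets differed by at least 1.36-fold and at least 1.01-fold in the same direction. Scap, the escort of SREBPs to the Golgi, gave 292 units in dendritic cells and 474 in eosinophils, 1.63-fold apart.

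Sterol export genes were brighter in eosinophils, although few were measured. Abcg1, which passes cholesterol to high-density lipoprotein, gave 293 units in dendritic cells and 1287 in eosinophils, 4.40-fold apart on its single probe set. Abca1, which loads lipid-poor apolipoproteins, gave 122 units in dendritic cells, under the floor, and 258 units in eosinophils, at least 1.91-fold apart. The other Abca1 probe sets lay under the floor on both arrays. Both kept this direction on the spike scale, where Abcg1 stood at 1.10 and Abca1 at 0.038 on the log2 scale. Abcg1 no longer reached 4-fold there, nor after centring on the median or loess. Apoe, a sterol acceptor protein that macrophages express highly, lay under the floor on both arrays, at 44.5 units in dendritic cells and 32.8 in eosinophils.

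Fatty acid synthesis, elongation and desaturation genes leaned towards dendritic cells. Of 9 measured, 6 were brighter in dendritic cells, against 42.6% of all genes, and 4 of them passed 2-fold, against 15.5%. The median log2 difference was -0.45, and on the spike scale it was -2.22 over 7 measured, without Acaca and Elovl6. Scd1, the desaturase that makes oleate, gave 1706 units in dendritic cells and 39.7 in eosinophils, under the floor, at least 12.7-fold apart. Its second probe set lay under the floor on both arrays (96.4 units and 53.7 units), and averaging the probe sets brought Scd1 to -1.59 on the log2 scale, short of 4-fold. Scd2, the related desaturase, gave 1510 units in dendritic cells and 565 in eosinophils, 2.67-fold apart. Both of its other probe sets stood towards dendritic cells, by 2.44-fold and by at least 1.57-fold. Scd1 and Scd2 thus lay on the same side on every measured probe set, and they are related in sequence, so cross-hybridisation was not tested.

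Fasn, the fatty acid synthase, gave 435 units in dendritic cells and 184 in eosinophils, 2.36-fold apart, the latter within the background range. Acaca, the carboxylase before it, pointed the other way at 69.0 units, under the floor, and 176 units, at least 1.31-fold. Elovl5, the elongase of polyunsaturated fatty acids, gave 27886 units in dendritic cells and 11176 in eosinophils, 2.50-fold apart. Its second probe set gave 19403 units and 9321 units, 2.08-fold apart. Both signals were thus far above the floor, and both probe sets put dendritic cells higher. Elovl1, which extends very long chains, differed by 1.37-fold, with 2895 units in dendritic cells and 2117 in eosinophils, and its other probe sets differed by -0.94 and 0.36 on the log2 scale. Elovl6, which extends palmitate, had opposed probe sets, at 68.5 units and 174 units on the first and 233 units and 10.8 units on the second, in dendritic cells and eosinophils. The desaturase Fads1 gave 67.2 units in dendritic cells and 201 in eosinophils, and Fads2 gave 163 units and 128 units. Elovl6 and the Fads genes lay too close to the floor for a difference to be read. The Elovl5 window (chr9:77917115-77917414, plus strand), shown because both probe sets of the gene put dendritic cells higher, holds 2 CCAAT boxes, in capitals.
Elovl5: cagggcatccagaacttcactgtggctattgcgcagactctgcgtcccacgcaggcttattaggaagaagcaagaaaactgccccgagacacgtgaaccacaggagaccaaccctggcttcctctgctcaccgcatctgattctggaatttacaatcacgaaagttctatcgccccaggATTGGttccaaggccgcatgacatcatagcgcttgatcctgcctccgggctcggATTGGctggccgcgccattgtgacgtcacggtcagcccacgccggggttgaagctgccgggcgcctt

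Genes for fatty acid activation were brighter in eosinophils, in a group with 2 measured members. Acsl4, the acyl-CoA synthetase that prefers arachidonate, gave 1421 units in dendritic cells and 3693 in eosinophils, 2.60-fold apart. Of its other probe sets, the first gave 118 units and 320 units in the same direction and the second gave 350 units and 194 units in the opposite direction. Acsl5 gave 1951 units in dendritic cells and 2931 in eosinophils, 1.50-fold apart. On the spike scale Acsl4 stood at 0.34 and Acsl5 at -0.45, so Acsl5 changed sides.

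Mitochondrial fatty acid oxidation genes differed little, mostly towards dendritic cells. Of 6 measured, 5 were brighter in dendritic cells, against 42.6% of all genes, and 1 passed 2-fold, with a median of -0.44. Cpt1a, the carnitine transferase at the entry to mitochondria, gave 403 units in dendritic cells and 381 in eosinophils, a ratio of 1.06. Its other probe sets differed by 0.31 and 0.37 the other way, all within the probe set SD. Among the acyl-CoA dehydrogenases, Acadl for long chains gave 2014 units in dendritic cells and 901 in eosinophils, 2.23-fold apart. Acadvl for very long chains gave 503 units and 371 units, 1.36-fold apart. Acadm for medium chains gave 367 units and 414 units, 1.13-fold apart towards eosinophils. Of the members above the floor on both arrays, Acadl thus differed by more than the probe set SD and the others by less. The subunits of the trifunctional protein pointed to dendritic cells. Hadhb gave 762 units there and 565 units in eosinophils (1.35-fold), with a second probe set at 1.64-fold, and Hadha gave 213 units and 8.50 units, at least 1.58-fold. Cpt2, the inner membrane partner of Cpt1a, lay under the floor on both arrays.

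Lipid droplet genes divided between the populations, 3 of 6 to each side, against 57.4% of all genes brighter in eosinophils. On the spike scale 4 of 5 measured were brighter in dendritic cells, against 78.0% of all genes. Dgat1, which makes triglyceride in the last acylation step, gave 3965 units in dendritic cells and 535 in eosinophils, 7.41-fold apart. This was its only probe set, and its identifier ends in _s_at, a class designed to match more than 1 transcript. Plin2, a coat protein of droplets in most cells, gave 2593 units in dendritic cells and 1030 in eosinophils, 2.52-fold apart. Plin3, the exchangeable coat protein, was brighter in eosinophils at 282 units against 12.2 units, at least 2.09-fold. The coat protein genes thus stood on opposite sides. Of the lipases that release fatty acids from droplets, Lipe gave 436 units in dendritic cells and 216 in eosinophils (2.02-fold). Pnpla2, which acts before it, gave 221 units and 335 units (1.52-fold). Dgat2, the other acyltransferase, gave 83.3 units and 156 units, the latter within the background range. Dgat1, Plin2, Lipe and Plin3 kept their direction under each alternative that measured them. The median of -0.40 moved to 0.21 without probe sets ending in _s_at or _x_at, a setting that left Dgat1 with none. The median stood at -2.05 on the spike scale, where Dgat2 was not measured.

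Cd36 was the member furthest apart. This scavenger receptor and fatty acid transporter gave 3174 units in dendritic cells and 205 in eosinophils, 15.5-fold apart. Its second probe set gave 2712 units and 48.6 units, at least 20.1-fold, and a further probe set gave 1368 units and 115 units, at least 10.2-fold. Each of the 3 probe sets thus passed 10-fold towards dendritic cells, and Cd36 stood past 4-fold under all 9 alternatives that were run on it, from -4.99 to -3.92 on the log2 scale. Fabp5, a cytosolic fatty acid carrier of leukocytes and epithelium, gave 697 units in dendritic cells and 640 in eosinophils, a ratio of 1.09. A second Fabp5 probe set gave 349 units and 112 units, at least 2.59-fold brighter in dendritic cells. Lpl, the secreted lipase that frees fatty acids from lipoproteins, gave 145 units and 148 units, both within the background range. Fabp4, the carrier of adipocytes, macrophages and capillary endothelium, lay under the floor on both arrays. The Cd36 window (chr5:17835847-17836146, minus strand), shown because its gene stood furthest apart, holds 1 CCAAT box, in capitals. None of the 12 motifs but the CCAAT box and the GC box was found in it.
Cd36: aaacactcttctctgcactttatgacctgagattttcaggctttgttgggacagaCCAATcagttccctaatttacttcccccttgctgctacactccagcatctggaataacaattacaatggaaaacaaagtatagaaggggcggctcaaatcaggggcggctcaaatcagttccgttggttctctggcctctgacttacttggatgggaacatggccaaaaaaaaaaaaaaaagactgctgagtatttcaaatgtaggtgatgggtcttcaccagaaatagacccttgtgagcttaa

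Cd36 and Scd1 are also expressed by macrophages, capillary endothelium, adipocytes or enterocytes, so the markers of those cells were read on the same arrays. Of all 12393 genes, 6362 were above the floor in dendritic cells and 7021 in eosinophils, and none of the marker lists below exceeded those shares. Of 11 enterocyte markers, 5 were above the floor in dendritic cells and 3 in eosinophils, with summed signals of 1448 units and 1137 units. Fabp1, an abundant enterocyte transcript, gave 7.57 units and 7.26 units, and Vil1 gave 87.6 units and 27.7 units, all under the floor. The 5 above it in dendritic cells were Fabp2 (226 units against 79.1 units in eosinophils), Apoa1 (229 and 179), Apoa4 (203 and 26.9), Mttp (221 and 154) and Epcam (336 and 433). These dendritic cell signals all exceeded the background level of 195 units, and 4 of the 5 genes were brighter in dendritic cells. Of 8 endothelial markers, 3 and 4 were above the floor, with sums of 1366 units and 1259 units. Vwf reached 640 units in dendritic cells, while Cdh5, Kdr and Cldn5 lay under the floor there. Of 6 adipocyte markers, 2 and 1 were above the floor, with sums of 892 units and 1029 units, and Adipoq lay under it on both. Of 11 macrophage markers, 5 and 4 were above the floor. In dendritic cells Lyz2 gave 7813 units, Cd68 gave 2573 units and Csf1r gave 1121 units, whereas Mertk, Mrc1, Cd163, Cx3cr1, C1qc and Fcgr1 lay under the floor. Mertk (258 units) and Cd163 (193 units, within the background range) were above the floor in eosinophils alone. The complement genes C1qb (363 units against 37.5 units, at least 2.70-fold) and C1qa (153 units against 14.7 units) were above the floor in dendritic cells alone. The enterocyte, endothelial and adipocyte sums thus differed by less than the macrophage sum, which was higher in dendritic cells. The part of such cells in the Cd36 and Scd1 signals was not tested.

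Lipid genes outside the list of members followed no common direction. Of 86 related genes with a probe set, 58 were measured. Past 4-fold there were 5 (8.62%) towards eosinophils and 4 (6.90%) towards dendritic cells, against 5.35% of all genes each way. The median was 0.16, equal to that of all genes, and on the spike scale it was -0.60, against -0.63. With the floor raised to the background level of 195 units, 51 were measured. The counts past 4-fold were then 5 and 2, against 5.63% and 5.76% of all genes, since Agpat3 and Angptl4 fell short. Among other sterol synthesis genes, Lbr, a lamin receptor with sterol reductase activity, stood 8.72-fold towards eosinophils, at 4592 units there and 527 in dendritic cells. Pmvk, the phosphomevalonate kinase, stood 5.14-fold towards dendritic cells, at 2172 units there and 423 units in eosinophils. Sc5d, a late desaturase, stood towards eosinophils by at least 2.25-fold. The list thus held genes past 4-fold on either side, and its median over 6 genes was 0.64, or -0.28 on the spike scale. Of the genes for sterol uptake and transport, Cyp27a1, the mitochondrial sterol hydroxylase, gave 1292 units in dendritic cells and 75.4 in eosinophils, at least 9.59-fold apart. Stard4, a cytosolic sterol carrier, stood 4.37-fold towards eosinophils (1148 units against 263 units), and Npc1, the lysosomal sterol exporter, gave 489 units there and 139 units in dendritic cells. That dendritic cell signal is within the background range, and against 195 units the Npc1 ratio is 2.50. The list median over 11 genes was 0.35. The nuclear receptor genes Nr1h3, Ppara, Ppard and Pparg all lay under the floor on both arrays, Pparg at 134.6 units in dendritic cells against a floor of 134.7 units. Nr1h2 was not analysed here.

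Of 7 other measured fatty acid synthesis genes, 6 were brighter in eosinophils, against 57.4% of all genes. After centring on the spike controls, 4 of 6 measured were brighter in dendritic cells, against 78.0% of all genes. The acetyl-CoA synthetases Acss1 and Acss2 differed by 5.46-fold (3901 units against 714 units) and 3.50-fold (753 units against 215 units). The citrate lyase Acly differed by 1.73-fold, with probe sets from -0.67 to 1.70 on the log2 scale. The list median was 0.50, or -0.40 on the spike scale. Among other oxidation genes, the carnitine carrier Slc25a20 stood 3.76-fold towards dendritic cells, at 11644 units there and 3097 units in eosinophils. Acadsb was at least 3.50-fold brighter in eosinophils (471 units), and Acaa2, the thiolase, was 2.36-fold brighter in dendritic cells, with a list median of -0.12 over 16 genes. Among glycerolipid genes, the monoglyceride lipase Mgll was at least 7.25-fold brighter in eosinophils (976 units against 73.4 units), as was G0s2, an inhibitor of the lipase that Pnpla2 encodes, by 5.69-fold (1560 units against 274 units). Agpat3, a lysophospholipid acyltransferase, stood at least 4.92-fold towards dendritic cells, with 663 units there. The list median was -0.18 over 10 genes. Of the other uptake and binding genes, Angptl4, a secreted inhibitor of lipoprotein lipase, stood 4.80-fold towards dendritic cells, at 650 units there and 135 units in eosinophils. The latter lies within the background range, and against 195 units the ratio is 3.32. Slc27a4, a fatty acid transport protein, and Dbi, the acyl-CoA binding protein, were brighter in eosinophils by 2.06-fold (338 units against 164 units, the latter within the background range) and 1.995-fold, with a list median of -0.37 over 8 genes.

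**Figure D3:**
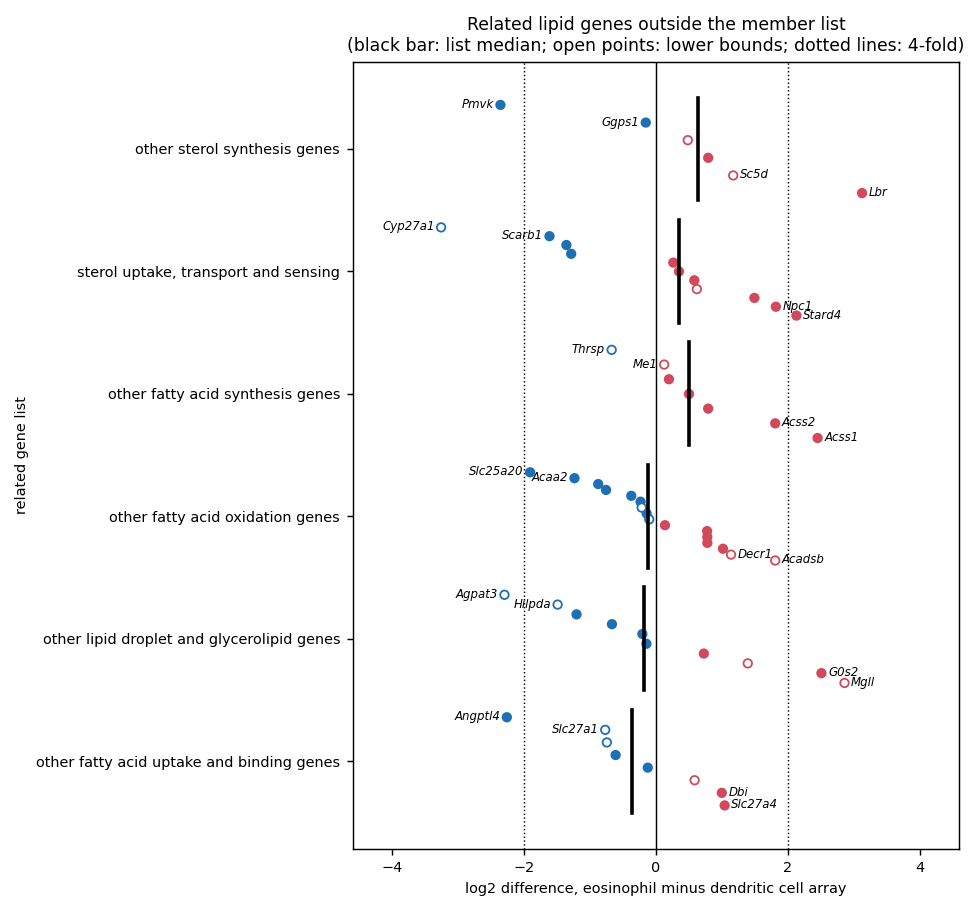
Log2 differences (eosinophil minus dendritic cell) of the 58 measured related genes in 6 lists, with list medians as black bars, lower bounds as open points and dotted lines at 4-fold. Lbr, Mgll, G0s2, Acss1 and Stard4 lie beyond 4-fold towards eosinophils, and Cyp27a1, Pmvk, Agpat3 and Angptl4 towards dendritic cells.

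The distance of a role from all genes moved with the processing setting, and for some roles so did the side of 0. On the spike scale the medians of sterol synthesis, SREBP control and activation went below 0. The lipid droplet median rose above 0 without probe sets ending in _s_at or _x_at. Centring on the spike controls moved the median of all genes from 0.16 to -0.63 and that of the members from 0.20 to -0.81. On that scale 9 of 42 measured members passed 4-fold towards dendritic cells, against 14.2% of all genes. They were Fasn, Scd1, Scd2, Elovl5, Acadl, Plin2, Dgat1, Lipe and Cd36. No member passed 4-fold towards eosinophils there, against 1.98% of all genes. Set against the median of all genes in the same setting, the sterol export group stood 1.38 higher as deposited and between 0.86 and 1.99 higher over the 10 alternatives and the deposited scale. The highest of these values rested on 1 gene, Abcg1, with the mean of all probe sets. The lowest covered 3 genes, with the floor at the 25th percentile. The fatty acid synthesis group stood at -0.61, with a range from -1.60 to -0.44, and the oxidation group stood at -0.59, with a range from -0.66 to -0.41. The lowest value of the fatty acid synthesis group was that on the spike scale, which measured 7 of its 9 genes, without Acaca and Elovl6. The lipid droplet group stood at -0.56 relative to all genes as deposited, at -1.43 on the spike scale and at 0.042 at the other end of its range. Its spike value covered 5 of its 6 genes, without Dgat2. Acaca, Elovl6 and Dgat2 were brighter in eosinophils as deposited. The spike values of both groups thus changed in gene set as well as in scale. The uptake group stood at -0.28 as deposited, with a range from -2.63 to -0.062 over few genes. Fatty acid activation stood 0.83 higher, with a range from 0.47 to 1.01 higher. SREBP control stood 0.34 higher, with a range from 0.085 to 0.66 higher, and the sterol synthesis enzymes stood 0.16 higher, with a range from 0.029 to 0.46 higher. Of these, the lipid droplet group changed sides relative to all genes, and the oxidation group moved least. Of the 43 measured members, 15 were brighter in dendritic cells and 11 in eosinophils under each alternative that measured them. The other 17 changed sides under at least 1 alternative. Among the 11, Acaca, Elovl6 and Dgat2 were not measured on the spike scale, so 8 kept their side there. The same count was not made over all genes.

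**Figure D4:**
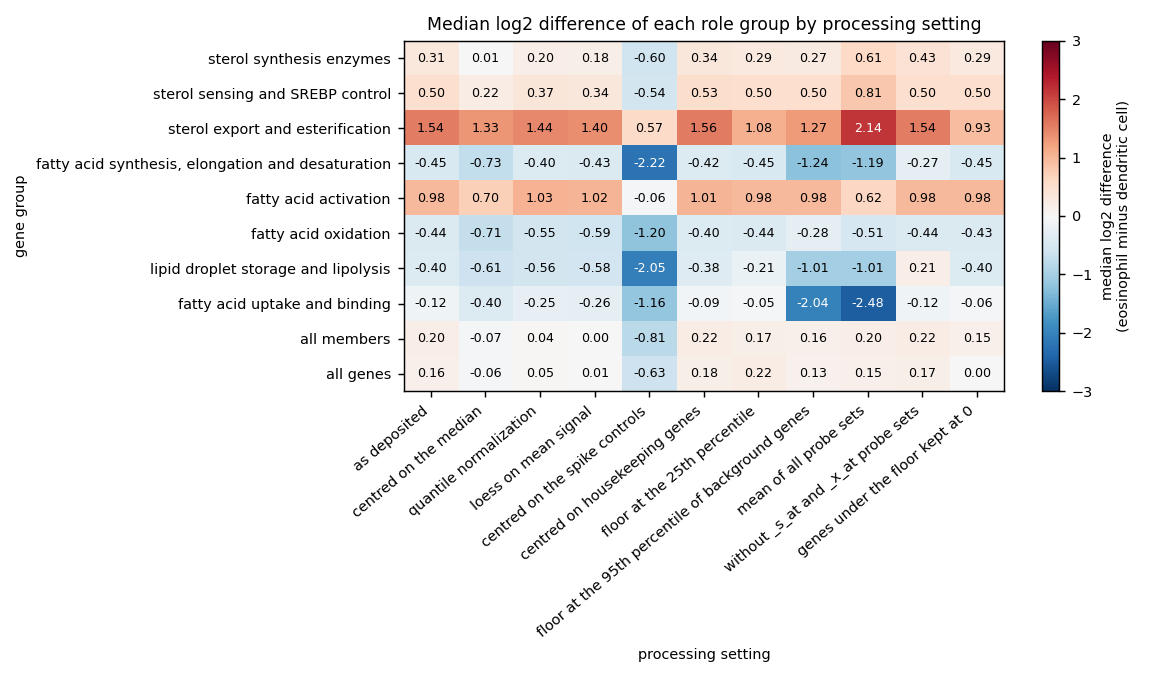
Median log2 difference (eosinophil minus dendritic cell) of each role group, of all members and of all genes, in rows, under each processing setting, in columns, with blue for dendritic cells and red for eosinophils. The sterol synthesis median goes from 0.31 as deposited to -0.60 on the spike scale, while the sterol export median is above 0 in each column.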

How the data were processed

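The members, lists and tests were chosen with earlier results of these data known. The deposited values are linear signal intensities for which the submitters' processing notes name MAS5 (5.0). Without the lowest and highest 2% of signals, their mean was 500.3 units for dendritic cells and 500.2 units for eosinophils. The table has no detection calls. Of 22690 probe sets, 64 were array controls, 20393 had 1 gene in the platform annotation, 691 had more than 1 and stayed unnamed, and 1606 had no entry. Entrez identifiers gave current symbols for 20364 probe sets (RefSeq, GRCm38.p6). Signals were raised to the floor and put on the log2 scale, and genes under it on both arrays took no part. Counts use a threshold of 4-fold, with no test, since there was 1 array per population. Every member above the floor was named, with the 3 related genes per list that stood furthest apart and a few fixed regulators, not all of which are reported here. The alternatives tried are given in the closing section. The procedure was tested on simulated data. Computation used Python 3.11.15, pandas 2.3.3, numpy 2.4.6 and statsmodels 0.14.6 (loess, span 0.3).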

Additional observations from a re-analysis of the deposited data

How the results depend on the processing

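No paired analysis was possible because each population had 1 array. Of 112 values of the counts, the member median and the role medians under alternatives, 88 stayed within the probe set SD or within 1.5 times the count. That SD is larger than most role medians, so a median could stay within it and still change sides. The lipid droplet median did so, from -0.40 to 0.21 without _s_at and _x_at probe sets. The 2 members at least 4-fold brighter in eosinophils became 0 after centring on the median, on the spike controls or by loess and at a 10-fold threshold (against 3.99%, 1.98%, 5.09% and 1.31% of all genes). They became 1 (Abcg1) with quantile normalization, the background floor, the mean of all probe sets or without _s_at and _x_at probe sets, and 6 at 2-fold. The 3 brighter in dendritic cells became 9 at 2-fold, against 15.5% of all genes, and 9 on the spike scale, against 14.2%. On that scale the member median was -0.81, and the role medians were -0.60 (sterol synthesis), -0.54 (SREBP control), 0.57 (sterol export), -2.22 (fatty acid synthesis), -0.058 (activation), -1.20 (oxidation), -2.05 (lipid droplets) and -1.16 (uptake). The fatty acid synthesis and lipid droplet medians there covered 7 and 5 measured genes, against 9 and 6 as deposited. The fatty acid synthesis median was -1.24 with the background floor and -1.19 with the mean of all probe sets, and the uptake median was -2.04 and -2.48, over fewer measured genes. No member past 4-fold changed sides under any alternative run. The cause of the scale difference was not tested. Signals near the floor limit what can be read: 10 of the 43 measured members were above it on 1 array only.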
